A study of Mus musculus with 6 samples.

Results

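The Slc15 genes encode proton-coupled carriers of small peptides, and all 5 mouse members, Slc15a1 to Slc15a5, were matched by gene name among 59902 genes in the deposited transcript tables. The family was chosen because the summed level of Slc15a2 had been lower in the propionate libraries, so the difference of Slc15a2 between the salts is given below as a description, with its standard error and no p-value. RNA came from GL261, an established mouse glioma line, and every library was of total RNA made with a stranded kit that removes ribosomal RNA. Sodium propionate, the salt of a short-chain fatty acid that gut bacteria make, was given to the cells of 3 libraries (numbered 1, 4 and 5), and sodium chloride, which carries the same cation, to those of 3 others (numbered 1, 2 and 3). Both salts were labelled as 1 uM and RNA was taken at 4 h. The labels do not tie the libraries of a salt to separate cultures, so the p-values cover the spread among these 6 samples alone, and part or all of it may be technical.

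Members of the family move dipeptides and tripeptides across a membrane together with protons. Slc15a1 (PEPT1) is the low-affinity, high-capacity carrier of the small intestine, and Slc15a2 (PEPT2) is the high-affinity carrier of kidney tubule, choroid plexus and astrocytes, where it takes up dipeptides such as carnosine, and 5-aminolevulinic acid. Slc15a3 (PHT2) and Slc15a4 (PHT1) sit in endosomes and lysosomes, also carry free histidine, and are known from immune cells, where Slc15a4 holds the adaptor TASL that leads from endosomal Toll-like receptors to the transcription factor IRF5. Slc15a5 is the least studied member.

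Depth, read as bases counted in transcripts, was 9.33 to 11.3 Gb in the propionate libraries and 9.15 to 9.47 Gb in the chloride libraries. Propionate 1 and chloride 3 had 71192 and 71452 transcript models with any coverage, against 81178 to 82370 in the other 4 libraries. Of the 9 glial markers 8 were found and 6 passed the filter on low levels. Vim averaged 3242 ± 207.8 TPM in propionate and 2994 ± 208.7 TPM in chloride (SD, n = 3 each), and S100b averaged 100.9 ± 0.927 TPM in propionate and 99.5 ± 6.40 TPM in chloride. Gfap, the intermediate filament of mature astrocytes, had a mean of 0.730 TPM in propionate and 1.13 TPM in chloride, and Slc1a3, the astrocyte glutamate carrier, was at most 0.120 TPM and at 0 in propionate 1 and chloride 1. Among 12 myeloid markers 5 were at 0 in all libraries (Adgre1, Itgam, Tyrobp, C1qa and C1qb), and the summed level of the list was 8.28 to 10.1 TPM in propionate and 7.57 to 9.58 TPM in chloride. The 3 past the filter were Csf1r, with means of 1.68 TPM in propionate and 1.44 TPM in chloride, Cd68, with 3.74 TPM in propionate and 3.89 TPM in chloride, and Lyz2, with 3.604 TPM in propionate and 3.12 TPM in chloride. The 9 intestinal and renal epithelial markers summed to 11.1 to 12.8 TPM in propionate and 10.7 to 11.4 TPM in chloride, with Umod at 0 in all libraries and Cubn at 8.48 ± 0.725 TPM in propionate and 8.46 ± 0.273 TPM in chloride. Epcam had 1.34 ± 0.330 TPM in propionate and 0.832 ± 0.0525 TPM in chloride (limma, adjusted p = 0.930). It was higher in every propionate library than in any chloride library, a pattern seen in 5.14% of the genes past the filter. Epcam passed that filter only through its propionate values, and its part in the results was not tested. Lymphoid and endothelial lists had 0 members past the filter on low levels, and the summed level of every marker list overlapped between the salts.

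GL261 transcribed 2 of the 5 genes at a level that could be tested, meaning that the deposited TPM (a relative transcript abundance corrected for length) averaged 1 or more over the libraries and the longest model had 200 nt or more. Slc15a4 stood highest, above 69.8% of the 16410 genes tested, and Slc15a2 stood above 59.3% of them. These ranks use TPM summed over the models of a gene, and the models of Slc15a2 cover different parts of it. Levels of genes and models, those of the markers above included, are TPM divided by a scaling factor per library, save where they are given as deposited. The remaining 3 members were at or near 0. Slc15a1 (ENSMUSG00000025557, 2 models, mm10 chromosome 14, 121459621 to 121505252, minus strand) was listed at 0 in all 3 propionate and all 3 chloride libraries. Slc15a5 (ENSMUSG00000044378, 6 models, chromosome 6, 137983586 to 138079916, minus strand) was likewise listed at 0 in all 6. StringTie divides reads among overlapping models, and a 0 in its tables can also stand for an estimate that failed.

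Slc15a3 (ENSMUSG00000024737, 4 models, chromosome 19, 10839727 to 10859362, plus strand) was listed at 0, 0.108 and 0.112 TPM in propionate 1, 4 and 5, and at 0.121, 0.278 and 0.187 TPM in chloride 1, 2 and 3. Every propionate library lay below every chloride library, all far under the filter, and 6.25% of the genes past the filter showed this pattern. The coding model ENSMUST00000025646 overlapped between the salts, at 0, 0 and 0.0940 TPM in propionate 1, 4 and 5, and 0.121, 0.0211 and 0 TPM in chloride 1, 2 and 3. A retained-intron model, ENSMUST00000138263, held 100%, 92.4% and 100% of the gene in propionate 4, chloride 2 and chloride 3. The first exon of the coding model, of 1035 bases, had no coverage in any library, and its last exon overlaps Tmem132a on the other strand, which stood at 20.7 ± 1.76 TPM in propionate and 21.8 ± 0.465 TPM in chloride (SD, n = 3 each). No source used here says whether the quantification used strand, so these low values are uncertain. With no filter the difference of Slc15a3 was -0.16 on the log2(TPM + 1) scale (SE 0.067, 95% confidence interval -0.32 to 0.011), and it did not pass the test over 32536 genes (limma, Benjamini-Hochberg adjusted p = 0.887).

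**Figure D1:**
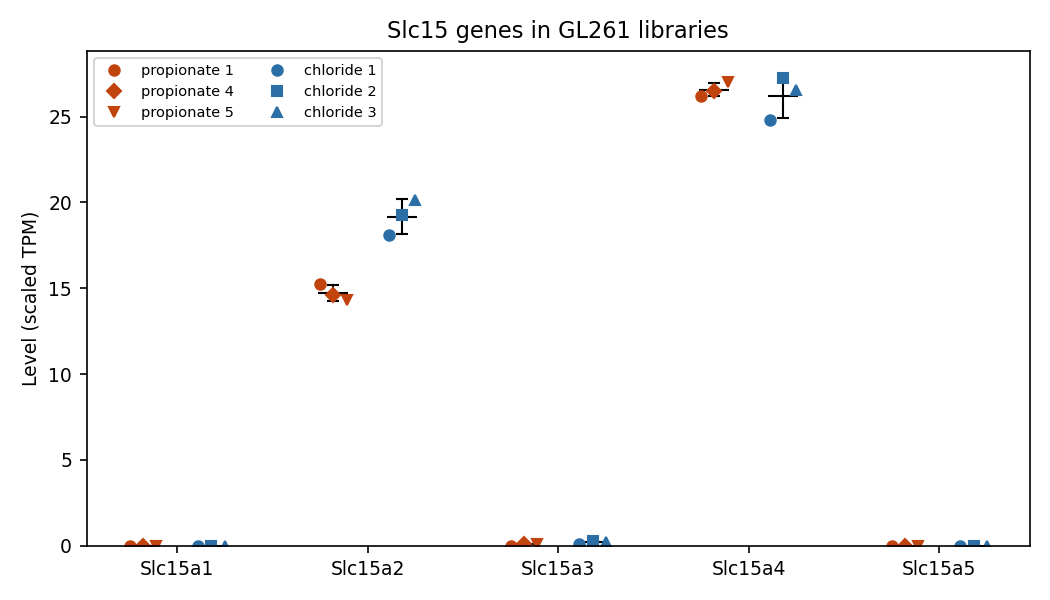
Level of the 5 Slc15 genes in each library, in scaled TPM on a linear axis, with propionate in orange and chloride in blue; horizontal lines are group means and bars are 1 SD (n = 3 each). Slc15a2 lies at 14.3 to 15.2 TPM in propionate and at 18.1 to 20.1 TPM in chloride, Slc15a4 overlaps between the salts, and the other 3 genes lie at or near 0.

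Slc15a2 (ENSMUSG00000022899, 15 models, chromosome 16, 36750177 to 36784962, minus strand) had 15.2, 14.6 and 14.3 TPM in propionate 1, 4 and 5, and 18.1, 19.2 and 20.1 TPM in chloride 1, 2 and 3. Every propionate library lay below every chloride library. The means were 14.7 ± 0.472 TPM in propionate and 19.2 ± 1.02 TPM in chloride (SD, n = 3 each), a difference of -0.36 on the log2(TPM + 1) scale (SE 0.067). Groups that did not overlap, with propionate lower, were seen in 6.25% of all genes tested, and since this contrast chose the family nothing is read from that. In RNA pooled over a culture, fewer cells with a transcript and less transcript per cell cannot be told apart.

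The reads behind Slc15a2 covered only the 3′ part of the gene. The annotated coding transcript, ENSMUST00000023616, has 22 exons and 3994 bases. Coverage, the mean number of reads over a base summed over all models, averaged 0.000407, 0.422 and 0.000265 over exons 1 to 7 in propionate 1, 4 and 5, and 0.000270, 1.47 and 0 in chloride 1, 2 and 3. Over exons 8 to 22 it averaged 39.6, 41.4 and 37.0 in propionate 1, 4 and 5, and 41.8, 40.1 and 48.3 in chloride 1, 2 and 3. The break stood at the same exon junction in all 6 libraries: of 42 values for exons 1 to 7 (7 exons in 6 libraries) 34 were under 1, and the highest was 3.59, in exon 7 of chloride 2, whereas single values of exons 8 to 22 ran from 13.6 to 81.5. Exons 1 to 7 span 900 bases of the transcript (chromosome 16, 36772064 to 36784962) and exons 8 to 22 span 3094 bases (36750177 to 36762387). This break concerns the annotated exons alone, since intron 7 also held reads upstream of exon 8, as given below. The exons on both sides of it are shown from the GENCODE M21 transcript (GRCm38, the assembly of mm10, minus strand, 5′ to 3′, no capitals). Exon 7 lies at chr16:36772064-36772141 and exon 8 at chr16:36762305-36762387.
Slc15a2 exon 7: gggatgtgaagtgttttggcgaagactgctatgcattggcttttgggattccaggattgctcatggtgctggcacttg
Slc15a2 exon 8: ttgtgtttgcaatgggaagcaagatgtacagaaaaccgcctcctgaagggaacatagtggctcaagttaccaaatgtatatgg

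**Figure D2:**
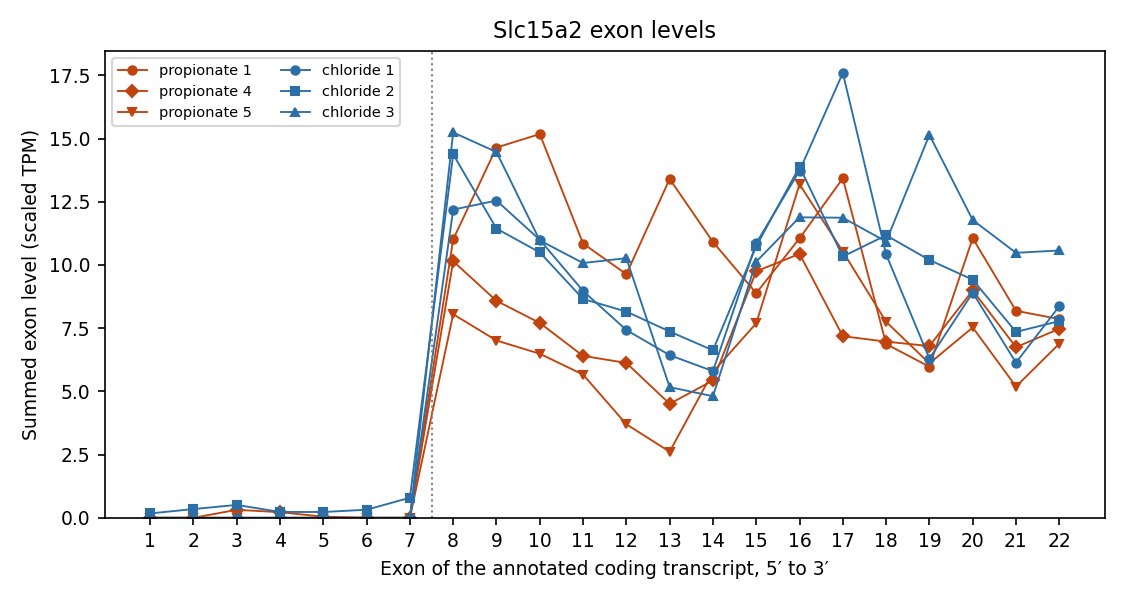
Level of each exon of the annotated Slc15a2 coding transcript, from the first exon at the left to the last at the right; the vertical axis is coverage summed over all models and put on the scaled TPM scale, each line is 1 library (orange propionate, blue chloride), and the dotted line marks the junction of exons 7 and 8. All 6 libraries lie near 0 up to exon 7 and are high from exon 8 on, where lines of both salts cross.

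The missing 5′ part holds 730 of the 2220 coding bases (32.9%) of the annotated transcript, which encodes 740 codons. The first ATG codon in the annotated reading frame after exon 7 is codon 248. No protein was measured, and which protein these transcripts give was not tested. Few of the genes compared showed such a gap. Among 5443 protein-coding genes whose leading coding model had 6 exons or more and averaged 5 TPM or more, coverage of the 5′-most 1/3 of exons was at the median 78.6% of that of the 3′-most 1/3, both from the model's own coverage and averaged over the 6 libraries with equal depth. The value was 0.792% for Slc15a2 and 52.1% for Slc15a4. Only 8 of these genes (0.147%) were under 5%, and 3 (0.0551%), Slc15a2 among them, were at or below its value. This measure was chosen after the exon values had been seen, and it carries no test.

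**Figure D3:**
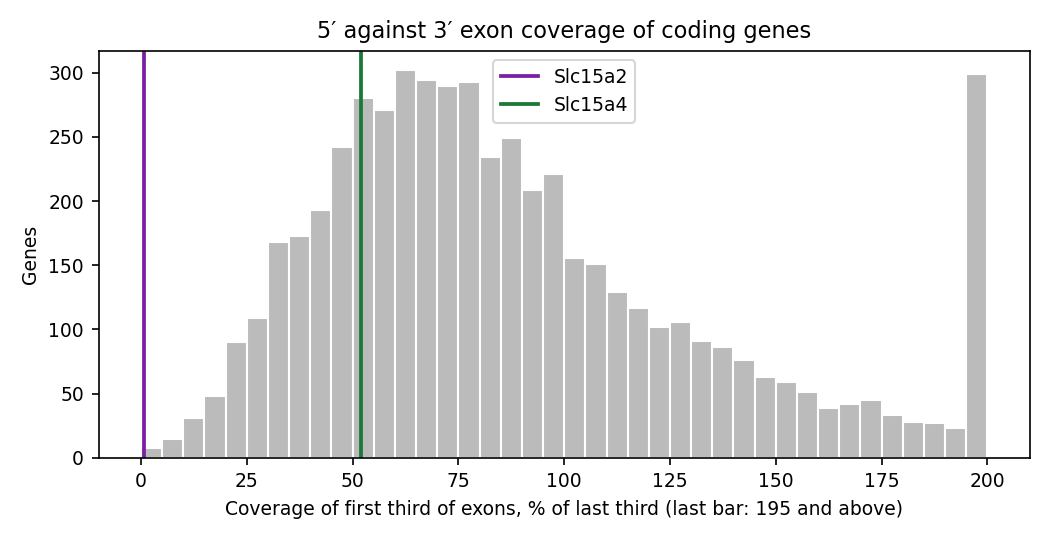
Coverage of the 5′-most 1/3 of exons as a percentage of that of the 3′-most 1/3, for the leading coding model of 5443 genes over all 6 libraries; bars count genes in steps of 5%, the last bar gathers values of 195% and above, and vertical lines mark Slc15a2 (purple) and Slc15a4 (green). Slc15a2 lies at 0.792%, at the left edge, and Slc15a4 at 52.1%, inside the main body.

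The Slc15a2 models that held the TPM, apart from the annotated coding model, reached no further 5′ than intron 7, which is 9676 bases long. The 2 models above 0 that lie further 5′, ENSMUST00000169644 and ENSMUST00000166399, had 0.000491 and 2.02e-06 TPM in chloride 2 and 0 in the other 5 libraries. ENSMUST00000167941, ENSMUST00000164770 and ENSMUST00000167909 share a 5′ end at 36763297, which lies 910 bases upstream of exon 8. MSTRG.8587.7, a model that the authors' assembly added from the reads, reaches 4336 bases upstream of exon 8, to 36766723. Its first exon of 3426 bases (36763298 to 36766723) had coverage of 20.8, 20.3 and 18.3 in propionate 1, 4 and 5, and of 21.1, 22.0 and 22.1 in chloride 1, 2 and 3. Propionate lay below chloride in coverage in this exon, but on the scaled TPM scale, at 4.73, 3.77 and 3.52 in propionate 1, 4 and 5 and 4.57, 4.87 and 4.94 in chloride 1, 2 and 3, the groups overlapped. The 5′ end of a model is where the annotation or the assembly ends it and not a measured start of transcription, and unspliced RNA, which total RNA libraries also hold, was not told apart from mature transcripts here.

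The annotated start of Slc15a2 lay upstream of 7 exons with almost no reads, and its promoter is shown beside that of Slc15a4, whose first exon was covered. Both are the 250 bases before the start site in RefSeq, assembly GRCm38.p6, minus strand, 5′ to 3′, with CG dinucleotides in capitals, at chr16:36784963-36785212 for Slc15a2 and chr5:127617393-127617642 for Slc15a4.
Slc15a2 promoter: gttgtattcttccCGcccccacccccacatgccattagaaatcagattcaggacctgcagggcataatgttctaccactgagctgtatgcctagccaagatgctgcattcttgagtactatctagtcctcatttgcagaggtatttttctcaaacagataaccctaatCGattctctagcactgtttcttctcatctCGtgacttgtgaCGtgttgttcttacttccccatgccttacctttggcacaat
Slc15a4 promoter: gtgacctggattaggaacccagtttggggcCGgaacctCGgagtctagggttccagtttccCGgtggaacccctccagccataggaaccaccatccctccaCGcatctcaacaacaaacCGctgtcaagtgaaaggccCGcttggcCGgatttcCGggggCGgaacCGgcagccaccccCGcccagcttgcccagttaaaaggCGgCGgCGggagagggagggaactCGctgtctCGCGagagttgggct

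These windows held 4 CG dinucleotides for Slc15a2 and 17 for Slc15a4. Of 32851 promoters in the RefSeq table, 62.2% had as many as Slc15a2 or more and 23.5% had as many as Slc15a4 or more. Promoters were matched for 4 of the 5 members. Slc15a1 and Slc15a5, both listed at 0, had 7 and 1. The letters CACGTG, the same on both strands and the core of the motif that lysosomal gene regulators of the TFEB type bind, were in none of these 4 windows and in 6.02% of all promoters. No match says only that these letters are not in this window.

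Over the exons that carried reads, the salts overlapped. On the scaled TPM scale exons 8 to 22 stood at 9.02, 7.68 and 7.11 in propionate 1, 4 and 5, and at 9.03, 8.87 and 10.8 in chloride 1, 2 and 3. Propionate 1 lay between chloride 2 and chloride 1, so the groups overlapped at that library. The means were 7.94 ± 0.979 in propionate and 9.56 ± 1.06 in chloride (SD, n = 3 each), a log2 ratio of means of -0.27, where the same ratio for the summed gene level was -0.38. The mean was lower in propionate for 13 of the 15 exons, and the groups did not overlap for 3 of them, exons 8, 15 and 18. Exon 18 had 6.88, 6.97 and 7.75 in propionate 1, 4 and 5, and 10.4, 11.2 and 10.9 in chloride 1, 2 and 3. These exons were named after their values were seen, and neighbouring exons share reads and libraries, so they are not separate evidence. How often exons of other genes are apart was not counted, so nothing is read from these counts.

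The models that make up the Slc15a2 sum differed in level and in spread. Of the 15 models 11 were above 0 in at least 1 library, 5 averaged 1 TPM or more as deposited, and the salts overlapped in 4 of those 5. By adjusted p under 0.05, 0.0364% of all transcripts tested were called. The annotated coding model ENSMUST00000023616 had 6.37, 5.57 and 5.13 TPM in propionate 1, 4 and 5, and 6.44, 6.25 and 7.80 TPM in chloride 1, 2 and 3. Propionate 1 lay within the chloride range, and the difference was -0.23 on the log2(TPM + 1) scale (SE 0.15). The assembled model MSTRG.8587.7, with the long first exon in intron 7, had 4.28, 3.38 and 3.12 TPM in propionate 1, 4 and 5, and 4.12, 4.36 and 4.38 TPM in chloride 1, 2 and 3. It too overlapped, with a difference of -0.21 (SE 0.16). Without chloride 3 the difference of ENSMUST00000023616 was -0.14, and without propionate 5 that of MSTRG.8587.7 was -0.14.

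The retained-intron model ENSMUST00000163964 (36755898 to 36756704) was the one whose groups were apart, at 0.820, 0.430 and 0.657 TPM in propionate 1, 4 and 5, and at 1.60, 1.31 and 1.13 TPM in chloride 1, 2 and 3. Its difference was -0.52 (SE 0.22), or -0.998 with a pseudocount of 0.1, and without any one chloride library its mean was under the filter. The means were 0.636 TPM in propionate and 1.35 TPM in chloride, so the model passed the filter only through its chloride values. It also belongs to the gene that chose the family, and nothing is read from its separation. Groups that did not overlap with propionate lower were seen in 7.73% of the 35755 transcripts tested. The processed-transcript model ENSMUST00000172382 had 0, 1.98 and 1.75 TPM in propionate 1, 4 and 5, and 2.06, 1.43 and 2.41 TPM in chloride 1, 2 and 3. Its difference was -0.54 (SE 0.48), but -0.037 without propionate 1 and 0.070 without both propionate 1 and chloride 3. ENSMUST00000167941 had 2.16, 1.90 and 2.02 TPM in propionate 1, 4 and 5, and 2.02, 3.13 and 0.667 TPM in chloride 1, 2 and 3. Chloride 3 was low for this model, and the difference of 0.14 (SE 0.36) became -0.22 without it. ENSMUST00000164770, which has the same first exon, went the other way there, with 0.179, 0.924 and 1.88 TPM in chloride 1, 2 and 3. In propionate 1, 4 and 5 that model had 0.473, 0.271 and 0.361 TPM. How reads were divided between these 2 models was not tested.

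**Figure D4:**
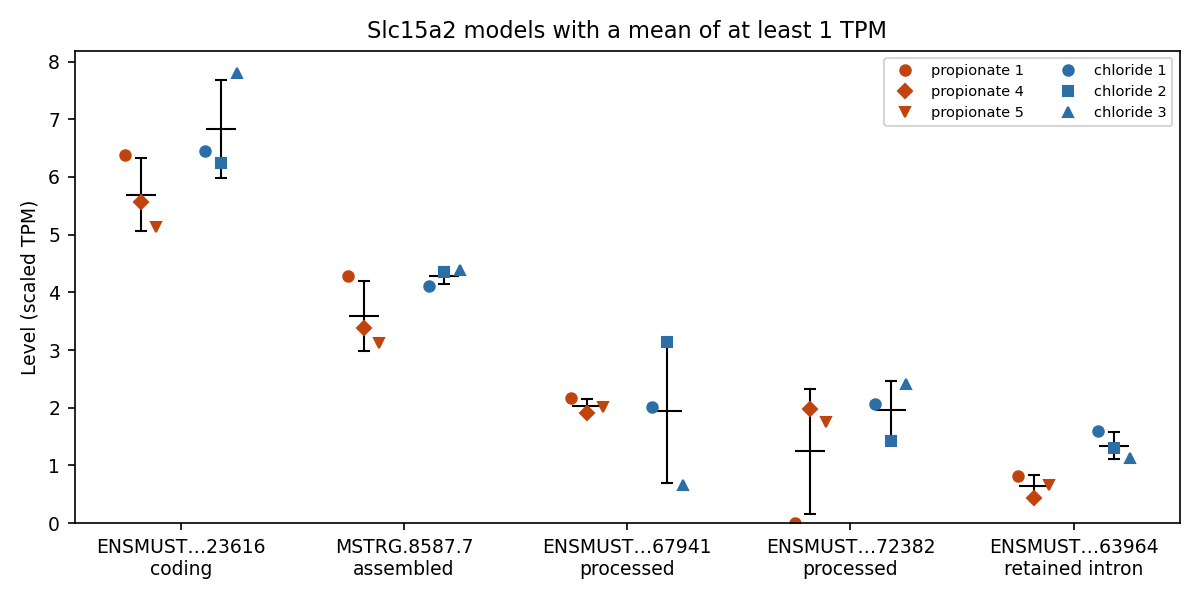
Level of the 5 Slc15a2 models that averaged 1 TPM or more as deposited, in scaled TPM per library on a linear axis, with propionate in orange to the left of chloride in blue for each model; horizontal lines are group means and bars are 1 SD (n = 3 each). Only the retained-intron model at the right is without overlap, at 0.430 to 0.820 TPM in propionate and 1.13 to 1.60 TPM in chloride. It passed the filter only through its chloride values.

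Shares within Slc15a2 have as denominator the gene's total, which had chosen the family, so they are given with no p-value. The permutation test of its leading-model share was used only in the adjustment for Slc15a4 below. ENSMUST00000023616 held 41.9%, 38.1% and 35.9% of the Slc15a2 TPM in propionate 1, 4 and 5, and 35.6%, 32.5% and 38.7% in chloride 1, 2 and 3. The groups overlapped, and the means of 38.6 ± 3.01% in propionate and 35.6 ± 3.13% in chloride (SD, n = 3 each) differed by 3.01 percentage points. Retained-intron models together held 12.7%, 9.97% and 12.8% in propionate 1, 4 and 5, and 17.1%, 16.4% and 14.9% in chloride 1, 2 and 3. These did not overlap, and the class was named after its values were seen. How many genes show such a pattern in a class was not counted. Each model of the class averaged at most 0.991 TPM over all libraries.

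Slc15a4 (ENSMUSG00000029416, 11 models, chromosome 5, 127595664 to 127632897, minus strand) had 26.2, 26.5 and 27.0 TPM in propionate 1, 4 and 5, and 24.8, 27.3 and 26.6 TPM in chloride 1, 2 and 3. The propionate libraries lay inside the chloride range. The means were 26.6 ± 0.388 TPM in propionate and 26.2 ± 1.27 TPM in chloride (SD, n = 3 each), and the difference of 0.021 on the log2(TPM + 1) scale (SE 0.059, 95% confidence interval -0.12 to 0.17) did not pass the test (limma, adjusted p = 0.970; its sign turned under other scalings, to -0.073 with TPM as deposited and -0.019 with voom). Of all genes tested 0.00609% passed adjusted p 0.05, which is 1 gene, higher in propionate and outside the family, and 0 genes (0%) were lower; by voom 0 passed. At unadjusted p under 0.05, limma had 465 genes lower (2.83%) and 339 higher (2.07%). The ratio of Slc15a4 to Slc15a2, per transcript length, was 1.72, 1.81 and 1.89 in propionate 1, 4 and 5, and 1.37, 1.42 and 1.32 in chloride 1, 2 and 3, so the lysosomal carrier was the higher of the pair in every library. That the groups did not overlap in this ratio follows the Slc15a2 values that chose the family. The ratio uses TPM summed over models, and those of Slc15a2 cover different parts of the gene. By scaled exon level, Slc15a2 exons 8 to 22 averaged 7.94 in propionate and 9.56 in chloride, under its summed means of 14.7 and 19.2 TPM. Exons 2 to 8 of Slc15a4 averaged 29.6 in propionate and 30.3 in chloride. Slc15a2 was thus lower beside Slc15a4 by exon level than the ratio of sums gives.

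Although the summed level of Slc15a4 was close between the salts, its division among models was less so. The coding model ENSMUST00000031367 had 18.6, 21.0 and 22.3 TPM in propionate 1, 4 and 5, and 21.3, 24.0 and 23.7 TPM in chloride 1, 2 and 3. The ranges overlapped, and the difference of -0.15 (SE 0.12) did not pass (limma, adjusted p = 0.862). It was -0.083 without propionate 1 and -0.061 without propionate 1 and chloride 3. ENSMUST00000153832, annotated as a target of nonsense-mediated decay, the pathway that degrades transcripts with early stop codons, had 6.93, 3.85 and 2.46 TPM in propionate 1, 4 and 5, and 2.34, 2.29 and 1.72 TPM in chloride 1, 2 and 3. Every propionate library lay above every chloride library, with propionate 1 far the highest, and the difference of 0.72 (SE 0.34, 95% confidence interval -0.12 to 1.56) did not pass either (limma, adjusted p = 0.862). It was 0.40 without propionate 1 and 0.31 without propionate 1 and chloride 3. Groups that did not overlap with propionate higher were seen in 4.55% of transcripts tested.

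The coding model ENSMUST00000031367 held 71.0%, 79.2% and 82.7% of Slc15a4 TPM in propionate 1, 4 and 5, and 86.0%, 88.2% and 89.3% in chloride 1, 2 and 3. The groups did not overlap, a pattern that the leading model of 3.57% of 11391 genes showed in this direction. The means were 77.6 ± 6.005% in propionate and 87.8 ± 1.68% in chloride (SD, n = 3 each), a difference of -10.2 percentage points (two-sided exact permutation test, p = 0.1, adjusted over 2 genes 0.2). No smaller p than 0.1 can be had from 3 libraries against 3, so the design could not reach the threshold. Without propionate 1 the difference was -6.88 points, and without propionate 1 and chloride 3 it was -6.13 points. All 4 coding models of Slc15a4 together held 71.0%, 83.6% and 87.6% in propionate 1, 4 and 5, and 86.4%, 88.9% and 89.3% in chloride 1, 2 and 3, and this share of the whole class overlapped between the salts. The class includes ENSMUST00000155321, a short model under the filter, which held 3.53% and 4.27% in propionate 4 and 5 and 0% in the other libraries. ENSMUST00000153832 held 26.4%, 14.5% and 9.13% in propionate 1, 4 and 5. In chloride 1, 2 and 3 it held 9.44%, 8.39% and 6.48%, so its share overlapped too. The separation of the leading model thus depended on a model under the filter as well.

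**Figure D5:**
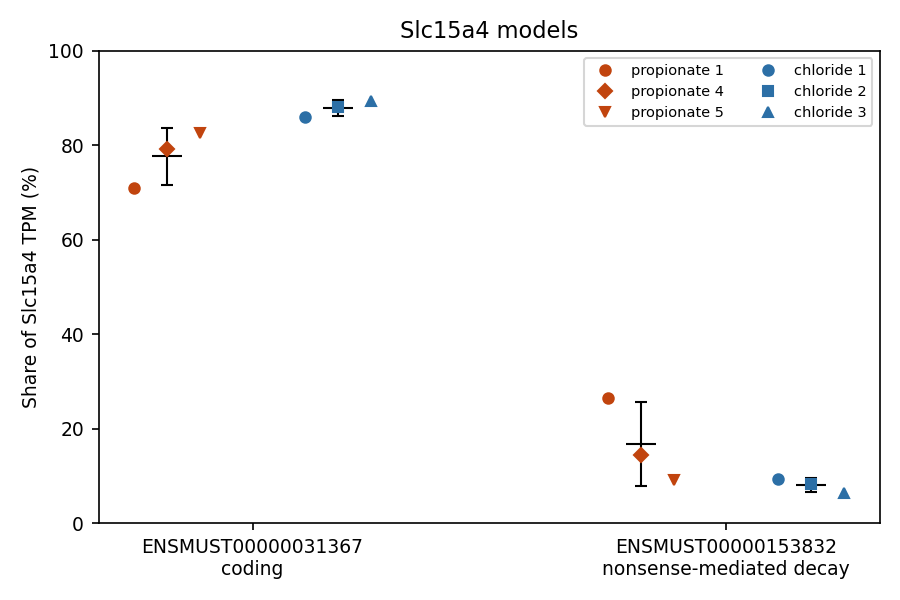
Share of Slc15a4 TPM held by the coding model ENSMUST00000031367 and by ENSMUST00000153832, annotated as a target of nonsense-mediated decay, in percent per library, with propionate in orange to the left of chloride in blue; horizontal lines are group means and bars are 1 SD (n = 3 each). The coding model lies at 71.0% to 82.7% in propionate and 86.0% to 89.3% in chloride, and the share of the other model overlaps between the salts.

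The models differ in where exon 3 begins. ENSMUST00000153832 uses an acceptor 58 bases further downstream, which shifts the reading frame and shortens it to 296 codons, against 574 in the coding model. Exon 3 is shown because these bases are what tells the models apart, from the GENCODE M21 transcript (GRCm38, chr5:127604538-127604706, minus strand, 5′ to 3′), with the bases that ENSMUST00000153832 leaves out in capitals.
Slc15a4 exon 3: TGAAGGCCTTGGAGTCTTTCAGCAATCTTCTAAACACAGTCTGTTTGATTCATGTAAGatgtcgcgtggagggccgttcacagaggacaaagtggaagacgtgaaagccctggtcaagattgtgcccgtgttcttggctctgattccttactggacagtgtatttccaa

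Coverage of Slc15a4 was continuous along the gene. Exons 2 to 8 averaged 129.9, 161.3 and 152.1 in propionate 1, 4 and 5, and 133.2, 141.1 and 138.5 in chloride 1, 2 and 3. Exon 1, of 604 bases, was lower but present, at 49.3, 41.3 and 54.7 in propionate 1, 4 and 5, and 30.2, 43.2 and 31.1 in chloride 1, 2 and 3, with overlap between the salts. It overlaps Gm43474 on the plus strand, which was listed at 0.159 TPM in propionate 1 and at 0 in the other 5 libraries. On the scaled TPM scale exons 2 to 8 averaged 29.6 ± 0.345 in propionate and 30.3 ± 1.34 in chloride (SD, n = 3 each), a log2 ratio of -0.035. Exon 5 was apart with propionate higher, at 26.5, 29.9 and 26.0 in propionate 1, 4 and 5. In chloride 1, 2 and 3 it stood at 25.6, 24.0 and 21.9, and it was named after its values were seen. A short model, ENSMUST00000155321, whose 5′ end lies further upstream inside Glt1d1 on the other strand, was listed at 0, 0.935 and 1.15 TPM in propionate 1, 4 and 5 and at 0 in all 3 chloride libraries. It was under the filter and was named after its values were seen.

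Genes that work with these carriers were present in part, and by limma 0 of them passed in either direction. Of the Toll-like receptor and TASL axis of Slc15a4, 13 of 14 genes were found by symbol (not Tasl) and 9 were tested, of which 4 were higher in propionate by sign and 5 lower, with a median difference of -0.010 (log2), against 0.0051 over all genes tested. Among the receptors, Tlr3, for double-stranded RNA, had 3.33 ± 0.413 TPM in propionate and 3.18 ± 0.553 TPM in chloride (limma adjusted p = 0.966), Tlr7, for single-stranded RNA, had a mean of 0.0486 TPM in propionate and 0.0288 TPM in chloride, and Tlr9, for unmethylated DNA, was listed at 0 in all 6 libraries. Unc93b1, the chaperone that carries these receptors to endosomes, had 8.75 ± 0.464 TPM in propionate and 7.31 ± 0.352 TPM in chloride (SD, n = 3 each; log2 difference 0.23, limma adjusted p = 0.930). Irak1, a kinase downstream of them, had 13.6 ± 4.91 TPM in propionate and 19.6 ± 3.87 TPM in chloride (log2 difference -0.55, limma adjusted p = 0.930).

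Muramyl peptides, fragments of bacterial cell wall that PEPT and PHT carriers can bring to their sensors, had 8 of 8 list genes found and 6 tested, 3 higher by sign and 3 lower, with a median of 0.028. Nod1, the sensor of diaminopimelic acid fragments, had 2.53 ± 0.564 TPM in propionate and 1.90 ± 0.295 TPM in chloride (limma adjusted p = 0.930), whereas Nod2, the sensor of muramyl dipeptide, had means of 0.0109 TPM in propionate and 0.00817 TPM in chloride. Tab1, an adaptor of the kinase TAK1, had the widest separation of the list, with 72.6, 55.6 and 58.8 TPM in propionate 1, 4 and 5 and 38.7, 43.5 and 49.5 TPM in chloride 1, 2 and 3. The groups did not overlap, and the log2 difference of 0.49 did not pass (limma adjusted p = 0.930). Groups that did not overlap with propionate higher were seen in 5.14% of genes tested.

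Of the proton exchangers and PDZ scaffolds that keep peptide carriers running at the plasma membrane, 10 of 10 were found and 5 tested, 3 higher by sign and 2 lower (median 0.0046). Nherf2, a PDZ scaffold, had 14.9 ± 0.996 TPM in propionate and 12.7 ± 0.522 TPM in chloride (limma adjusted p = 0.930).

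Enzymes that split the imported peptides were well represented, with 21 of 21 peptidases found and 15 tested, 9 higher by sign and 6 lower (median 0.018). Dpp8, a cytosolic dipeptidyl peptidase, had 29.6 ± 1.52 TPM in propionate and 31.7 ± 0.677 TPM in chloride, and Nln, neurolysin, had 28.6 ± 0.401 TPM in propionate and 26.9 ± 1.48 TPM in chloride (limma adjusted p = 0.930 for each). Cndp2, the cytosolic dipeptidase that can split carnosine, had 22.2 ± 1.72 TPM in propionate and 23.9 ± 3.36 TPM in chloride (limma adjusted p = 0.936). In carnosine and histidine metabolism 12 of 12 genes were found and 7 tested, 2 higher by sign and 5 lower (median -0.050). Carnmt1, which methylates carnosine to anserine, varied widely within both groups, at 5.03, 2.29 and 2.27 TPM in propionate 1, 4 and 5 and 12.0, 9.36 and 1.48 TPM in chloride 1, 2 and 3 (limma adjusted p = 0.930). Csad, a decarboxylase of cysteine sulfinate, had 25.0 ± 0.983 TPM in propionate and 23.8 ± 0.352 TPM in chloride (limma adjusted p = 0.930).

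A list of other lysosomal membrane proteins, among them carriers of amino acids and dipeptides, had 13 of 13 genes found and 10 tested, 7 higher by sign and 3 lower (median 0.017). Mfsd1, a lysosomal dipeptide exporter, had 102.9 ± 6.26 TPM in propionate and 101.1 ± 3.93 TPM in chloride (limma adjusted p = 0.966), and was higher per transcript length than Slc15a4 in every library. Its partner Glmp, which protects Mfsd1 from degradation, was under the filter, at 0.169 TPM in propionate and 0.130 TPM in chloride. Slc38a9, the arginine sensor of the lysosome, had 2.71 ± 0.473 TPM in propionate and 2.83 ± 0.267 TPM in chloride (limma adjusted p = 0.970). Slc17a5, the sialic acid exporter, had 12.5 ± 0.415 TPM in propionate and 11.7 ± 0.921 TPM in chloride (limma adjusted p = 0.933), and Ctns, the cystine exporter, had 10.1 ± 0.109 TPM in propionate and 10.6 ± 1.07 TPM in chloride (limma adjusted p = 0.936).

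The genes whose levels followed those of the transcribed members most closely over the 6 libraries were picked from 8907 protein-coding genes that averaged 5 TPM or more, as a description. For Slc15a2 they were Brd2, a reader of acetylated histones (Pearson r = 0.982), Alkbh1, a nucleic acid demethylase (r = 0.975), and Parp3, a DNA repair enzyme (r = 0.973), and 76 genes had r above 0.9. Brd2 had 94.7, 93.3 and 88.0 TPM in propionate 1, 4 and 5, and 104.5, 106.7 and 109.1 TPM in chloride 1, 2 and 3, without overlap. For Slc15a4 they were Scamp4 (r = 0.979), Fam133b (r = 0.974) and Gm49359 (r = 0.967), with 29 genes above 0.9. With 6 libraries in 2 groups, genes that are lower in propionate resemble Slc15a2 by that alone, and all values share the libraries and their scaling.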

How the data were processed

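RNA-seq of 6 libraries of GL261 cells was used, 3 per salt. The build mm10 and the tools fastp, HISAT2, StringTie and bcl2fastq stand in the submitters' processing notes. Per the file headers, the deposited files are StringTie 2.1.1 tables of other than count values: coverage, FPKM and TPM per model and coverage per exon, for one set of 157296 models (14805 assembled), estimated in each library separately. No source used here gives read counts or the strand setting. GENCODE M21 supplied transcript classes, exons and exon sequences, and RefSeq (GRCm38.p6) the promoters.

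TPM were summed per gene, with assembled models joined to a single gene, and divided by median-ratio factors (0.967 to 0.972 for propionate, 0.991 to 1.09 for chloride). Genes (16410) and models (35755) that averaged 1 TPM or more and had 200 nt or more were tested two-sided with limma 3.58.1 (trend) in R 4.3.3 on log2(TPM + 1), which understates changes of low genes, with Benjamini-Hochberg adjustment. Exon coverage was put on the TPM scale by each library's ratio of TPM to coverage. Reads for voom were estimated from coverage with a read length of 101, with TMM factors. The leading-model share of Slc15a4 had an exact permutation test, adjusted with that of Slc15a2. Files were read with Python 3.11.15.

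Members, gene lists, the naming rule (the 2 smallest p per pathway list, 10 genes whatever their values and the 3 most alike genes per member) and the alternatives were chosen with earlier results of these data known. Some genes that this rule names are not reported here.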

Additional observations from a re-analysis of the deposited data

How the results depend on the processing

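The log2 difference of Slc15a2 stayed negative under all 17 alternatives, from -0.45 with TPM as deposited to -0.31, and from -0.40 to -0.32 when 1 library was left out. This contrast had chosen the family and the alternatives reuse the same libraries, so the unchanged sign is no further evidence. The log2 difference of Slc15a4 did not pass the test under any of its 17 alternatives (lowest adjusted p 0.704, limma with library weights), but its sign turned without chloride 1 (range over single libraries left out -0.017 to 0.049), with TPM as deposited (-0.073) and with voom (-0.019). The cause was not tested. The number of genes past adjusted p 0.05 was 1, and 0 to 5 when 1 library was left out (0 without chloride 2 or propionate 5, 3 without chloride 3, 5 without propionate 1), 9 with the 4 libraries that covered more transcripts, 2 with library weights, and 0 with voom or with no filter. Among Slc15a2 models, ENSMUST00000172382 turned to 0.070 with those 4 libraries, and ENSMUST00000167941 turned to -0.26 with them and to -0.22 without chloride 3 (range over single libraries left out -0.22 to 0.43). The share of the leading model differed by 1.39 to 4.58 percentage points for Slc15a2 and by -12.7 to -6.13 for Slc15a4. No paired analysis was possible because the salts share only replicate number 1. Depth limits Slc15a3, whose exons had a few reads per base at most, and levels of models that share exons rest on how StringTie divided the reads.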
